A study of Mus musculus with 6 samples.

Results

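The genes described here are 6 of the 32285 in the count tables: the receptors Ctla4, Cd28 and Icos and the ligands Cd80, Cd86 and Icosl. They were chosen by name, and their molecule counts were read in immune and structural cells of the lung that were sorted into gates by other genes. CD28 is the costimulatory receptor that a T cell engages beside its antigen receptor, and CTLA4 is an inhibitory receptor that binds the same ligands, CD80 and CD86, more tightly and can remove them from the cells that carry them. ICOS is a costimulatory receptor of the same family that appears on activated T cells, and its ligand is ICOSL. CTLA4 is held at high levels by regulatory T cells, and CD80 and CD86 are known as the costimulatory ligands of dendritic cells, macrophages and B cells.

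The cells came from the right lung of 6 male mice of the hCTLA4 genotype, 12 weeks old, in which human exons 2 and 3 replace those of the mouse Ctla4 gene on a C57BL/6 background. All 6 had bleomycin at 1.25 U/kg in 2 doses given 2 weeks apart, so an uninjured lung was not part of the comparison. From day 21, 3 mice received IgG1 isotype and 3 received ipilimumab, an antibody to human CTLA4, at 5 mg/kg, with 2 injections a week for 4.5 weeks. Each mouse gave 1 single-cell 3′ library, and the mouse was the unit of each test below.

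Libraries held 3.77e+07 to 4.86e+07 unique molecular identifiers (UMIs, each standing for 1 captured RNA molecule) and gave 3270 to 4357 cells, 24276 in all, with medians of 5978 to 7933 UMIs per cell. Called cells held 78.9% of the UMIs of ipilimumab replicate 1, the lowest share, and up to 93.1% elsewhere, and that library gave 158 of the 181 AT2 cells (alveolar type 2 epithelium). Pairs of libraries shared from 0 to 7 cell barcodes. A cell entered a lineage gate when at least 3 of 6 marker genes of that lineage had a UMI and no other lineage had as many, which placed 23169 cells in 23 gates and left 1107 in none. The T gate (5090 cells) was split into Treg (a Foxp3 UMI, no Cd8a or Cd8b1; 156 cells), conventional CD4 (1549), CD8 (2039) and double-negative cells (no UMI of Cd4, Cd8a, Cd8b1 or Foxp3; 1231). CD4, CD8 and Treg cells in which no UMI of these markers was captured also fall in the double-negative gate, and their number was not tested. No gate used any of the 6 genes. Levels are given as CPM, which is the share of a gene among the UMIs of all genes in the cells of a gate and mouse, scaled to 1e+06 UMIs. They compare a gene between gates and mice, not one gene with another.

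The 3 receptor genes are neighbours on mouse chromosome 1 (GRCm38, GENCODE M21), all on the + strand. Cd28 lies at chr1:60716800-60773359, Ctla4 113640 bases further on at chr1:60887000-60915832, and Icos another 62094 bases on at chr1:60977927-61000320. Cd80 (chr16:38455561-38496335, + strand) and Cd86 (chr16:36603869-36666081, − strand) share chromosome 16, and Icosl lies at chr10:78069302-78083913 on the + strand. The receptors share a proline-rich loop that touches the ligand. The reference bases of its 6 codons are shown in capitals, with 6 bases of flank on each side, because the loop shows how the receptors for CD80 and CD86 differ from the receptor for ICOSL.
Ctla4: gaactcATGTACCCACCGCCATACtttgtg
Cd28: gagttcATGTACCCTCCGCCTTACctagac
Icos: tccattTTTGACCCACCTCCTTTTcaagaa
The stretches lie in exon 2 of each gene, at chr1:60912707-60912736 (codons 134 to 139 of 223 in Ctla4), chr1:60763269-60763298 (codons 118 to 123 of 218 in Cd28) and chr1:60993977-60994006 (codons 114 to 119 of 200 in Icos). Of the 18 loop bases, Ctla4 and Cd28 had 16 in common, Ctla4 and Icos 11, and Cd28 and Icos 11. The Ctla4 stretch is the mouse reference, and these mice carry human sequence in that exon. The 3′ libraries read the end of a transcript, so the counts check neither the human exons nor the antibody's target.

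Receptor UMIs were in T cells and ligand UMIs were in B cells and myeloid cells, in every mouse. As the mean over the 6 mice, the T gate held 84.0% of the Ctla4 UMIs in cells (range 72.7 to 92.8%), 90.3% of the Cd28 UMIs (86.5 to 93.9%) and 89.5% of the Icos UMIs (85.2 to 92.2%), while T cells were 17.1 to 26.2% of cells. The T gate held 1.81% of Cd80, 1.69% of Cd86 and 2.30% of Icosl UMIs. The gate with the highest mean share differed between Cd80 and the other ligands. Neutrophils held 38.8% of Cd80 UMIs (20.1 to 57.1%), with alveolar macrophages next at 24.6%. In ipilimumab replicate 2 the order was turned, with 40.7% in alveolar macrophages and 20.1% in neutrophils. B cells held 66.0% of Cd86 UMIs (59.1 to 77.4%) and 50.7% of Icosl UMIs (36.2 to 65.9%). In IgG1 replicate 2 alveolar macrophages held 36.9% of Icosl UMIs against 36.2% in B cells.

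**Figure D1:**
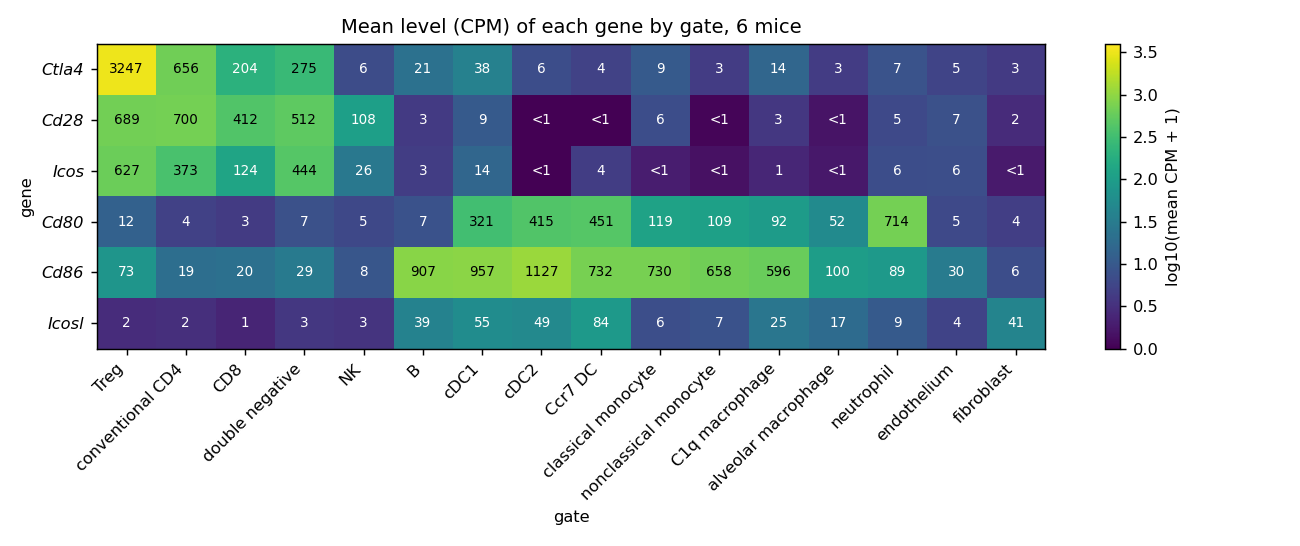
Mean level of each of the 6 genes by gate over the 6 mice, as log10(mean CPM + 1) in colour. The receptors are high in the T gates, with Ctla4 highest in Treg cells (mean 3247 CPM), and the ligands are high in B, dendritic, monocyte and neutrophil gates.

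**Figure D2:**
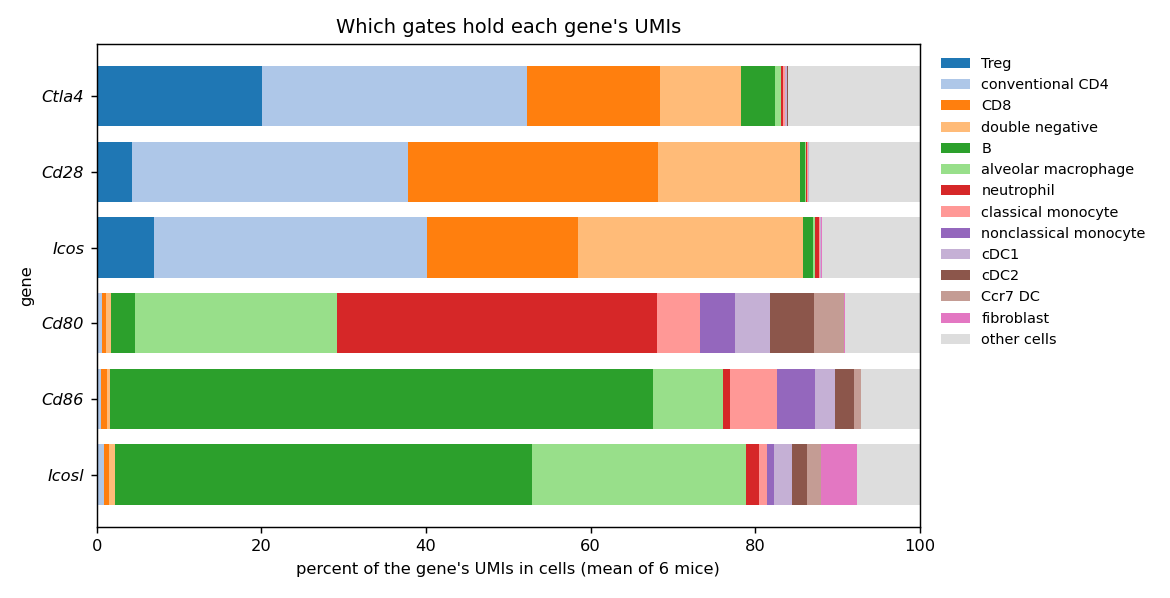
Percent of each gene's UMIs in cells that each gate holds, as the mean of 6 mice, 1 stacked bar per gene. T cells outside the 4 subsets shown are among the other cells. T gates fill most of the receptor bars, B cells most of the Cd86 bar (66.0%) and about as much of the Icosl bar as all other gates together (50.7%), and neutrophils (38.8%) and alveolar macrophages (24.6%) most of the Cd80 bar.

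Ctla4, the inhibitory receptor, was highest in Treg cells in all 6 mice. Its level there was 2311, 3609 and 2678 CPM in IgG1 replicates 1 to 3 and 3444, 3025 and 4418 CPM in ipilimumab replicates 1 to 3. In conventional CD4 cells it was 529, 950 and 439 CPM with IgG1 and 520, 602 and 897 CPM with ipilimumab. The 2 gates did not overlap: the lowest Treg value was above the highest CD4 value, and the ratio within a mouse ran from 3.80 to 6.63. CD8 cells had 136, 243 and 189 CPM with IgG1 and 201, 195 and 260 CPM with ipilimumab, and double-negative cells 240, 177 and 272 CPM with IgG1 and 286, 219 and 454 CPM with ipilimumab. CD4 cells exceeded CD8 cells 2.33 to 3.91 times within each of the 6 mice.

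Although Treg cells had the highest level, the Treg gate held few cells. This gate needs a Foxp3 UMI, so Treg cells in which none was captured fall in other T gates. The count and the Ctla4 share of the Treg gate may therefore be too low. The Ctla4 level of the CD4 gate, and with it the ratio of CD4 to CD8 cells, may include missed Treg cells. How many were missed was not tested. The Treg gate held 8.52 to 27.4% of Ctla4 UMIs over the mice. Conventional CD4 cells held 27.9 to 37.0% (mean 32.3%), CD8 cells 12.5 to 26.8% (mean 16.1%) and double-negative cells 5.18 to 12.8% (mean 9.83%). The CD8 share was above the Treg share in IgG1 replicates 1 and 3 and below it in the other mice. A Ctla4 UMI was found in 96.7% of Treg cells (range over mice 88.2 to 100%), 53.1% of CD4 and 42.9% of CD8 cells. Alveolar macrophages, which should lack the gene, had a UMI in 7.09% of cells at median depths of 19848 to 24626 UMIs, against 7923 to 10099 for T cells. With each cell thinned to 1000 UMIs, the shares were 16.3 to 28.8% in T cells and 0 to 0.583% in alveolar macrophages. B cells had a Ctla4 UMI in 5.90% of cells, below the macrophage share, and thinned in 0.782 to 1.31%, above it, at a level of 11.6 to 44.2 CPM. Barcodes too low to be cells had 170 to 273 CPM of Ctla4. Such free RNA was estimated at 2.45 to 8.94% of the UMIs of T and B cells. Its part in the B cell value was not tested.

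Cells of the plasma gate also carried Ctla4. Its level was 913, 639 and 972 CPM in the IgG1 mice, from 6, 13 and 2 cells, and 463, 183 and 516 CPM in the ipilimumab mice, from 13, 2 and 8 cells. The IgG1 values were all above the ipilimumab values, but 2 mice gave only 2 cells each, and the edgeR test on the mice with at least 5 cells gave a log2 difference of −0.23 (95% interval −1.29 to 0.83, adjusted p = 0.952). The T markers Cd3d, Cd3e, Cd3g, Trac, Trbc1 and Trbc2 summed to 0 to 75.7 CPM in the plasma gate and all 6 were at 0 in 3 of the mice, in each of which Ctla4 had UMIs. The 13 cells of ipilimumab replicate 1 had a median of 2215 UMIs, against 14219.5 to 54688.5 in the other mice. Barcodes too low to be cells had 195 CPM of Ctla4 in ipilimumab replicate 2, above the 183 CPM of its plasma gate. In the other mice such barcodes had 170 to 273 CPM, below the plasma gate. Plasma cells are antibody-secreting B lineage cells, and they held 2.29% of all Ctla4 UMIs. Cd28, which plasma cells are known to carry, was 0 to 329 CPM in the same gate.

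Cd28, the main costimulatory receptor, overlapped between Treg and conventional CD4 cells and was lower in CD8 cells. It was 532, 509 and 649 CPM in the T gate of the IgG1 mice and 550, 504 and 494 CPM in that of the ipilimumab mice. Treg cells had 488 to 831 CPM and conventional CD4 cells 653 to 836 CPM, so these gates overlapped, and Treg cells were the higher in 3 of 6 mice. CD8 cells had 344 to 545 CPM, below the CD4 cells of the same mouse in all 6, by 1.53 to 1.90 times. NK cells were the only other gate of those with 5 cells in every mouse to stand apart from the gates below it, with 120, 77.9 and 187 CPM with IgG1 and 111, 84.5 and 69.2 CPM with ipilimumab. A Cd28 UMI was in 33.0% of NK cells and 85.7% of T cells, against 1.11% of alveolar macrophages. NK cells shared low T marker counts (441 to 549 CPM for the 6 genes), and their part in this value was not tested.

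Icos, the receptor of activated T cells, had its highest mean among T gates in Treg cells. Treg cells had 252, 717 and 580 CPM with IgG1 and 735, 511 and 968 CPM with ipilimumab, and conventional CD4 cells 238, 458 and 270 CPM and 356, 357 and 560 CPM. IgG1 replicate 1 was the lowest of the 6 mice in both gates. Double-negative cells ran from 264 to 657 CPM and held 27.4% of Icos UMIs, more than the 18.3% in CD8 cells, whose level was 102 to 136 CPM. The double-negative gate may include CD4 and CD8 cells whose Cd4, Cd8a or Cd8b1 RNA was not captured.

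The gate of type 2 innate lymphoid cells (ILC2) had an Icos level in the range of these T gates. Its 1, 4 and 5 cells in the IgG1 mice gave 865, 277 and 334 CPM, and its 16, 16 and 18 cells in the ipilimumab mice gave 235, 695 and 468 CPM. ICOS is known on these cells, which lack a T cell receptor, but the T markers summed to 158 to 1599 CPM in the gate, and their part in the value was not tested. An Icos UMI was in 56.5% of T cells and 1.21% of alveolar macrophages, and after thinning in 13.7 to 25.2% and 0 to 0.324%.

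**Figure D3:**
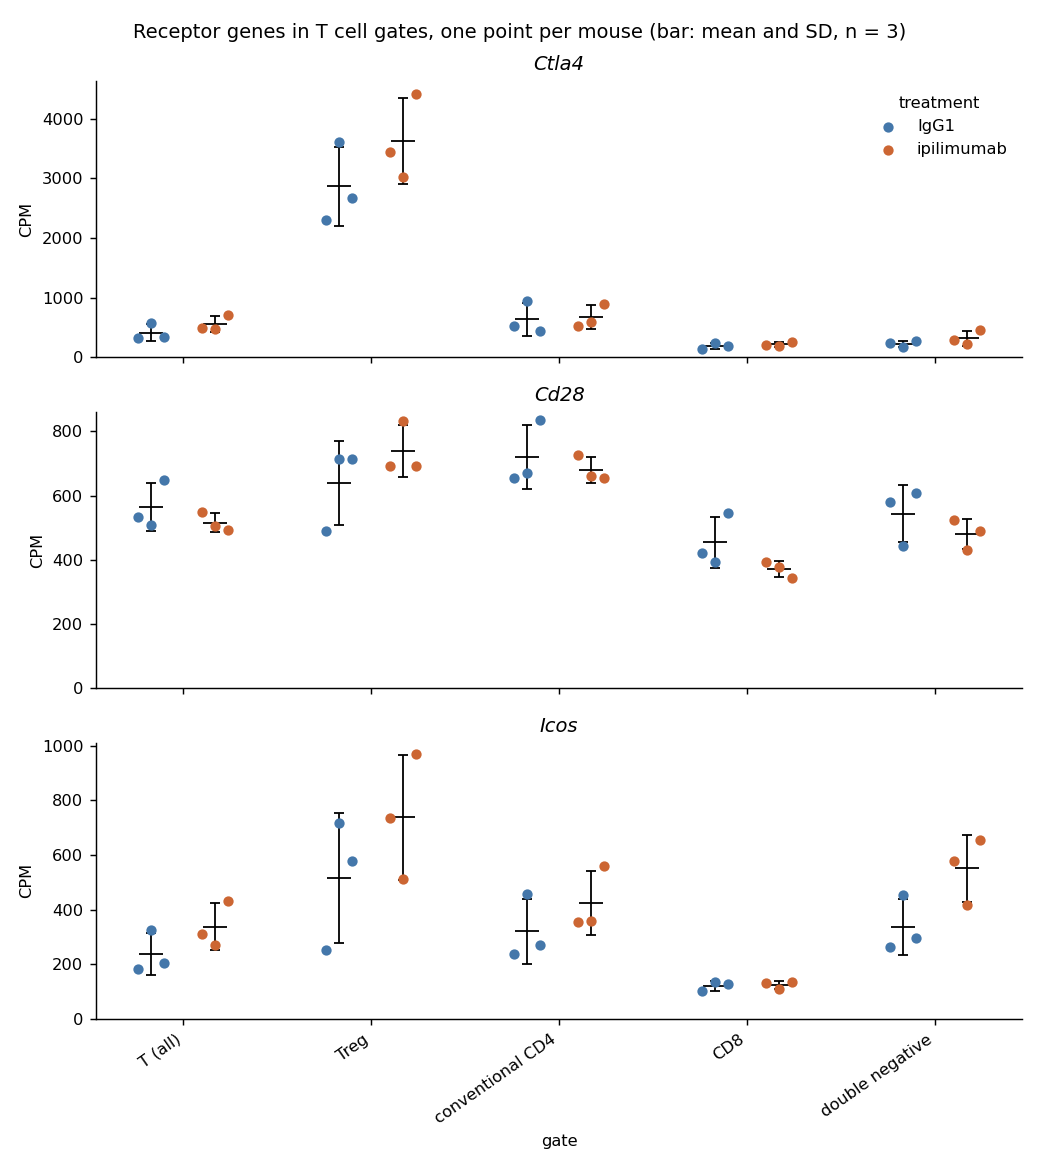
CPM of Ctla4, Cd28 and Icos in the T gate and its subsets, 1 point per mouse with the group mean and SD (3 mice per group; bars are cut at 0). Ctla4 in Treg cells lies between 2311 and 4418 CPM, above every value of the other gates shown, whereas Cd28 overlaps between Treg (488 to 831 CPM) and CD4 cells (653 to 836 CPM).

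Paired tests within mice put errors on these differences. UMIs were summed per gate and mouse and tested with edgeR, with the mouse as a block, and the call needed an adjusted p below 0.05 together with a log2 difference of more than 0.3 in size. Between Treg and conventional CD4 cells, 10.1% of 8069 genes were called. Ctla4 was higher in Treg cells by 2.30 (SE 0.11) on the log2 scale with adjusted p = 8.5e-10, and Icos by 0.69 (SE 0.12) with adjusted p = 0.0012. Cd28 differed by −0.06 with a 95% interval of −0.28 to 0.16.

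Between CD8 and conventional CD4 cells, where 19.4% of genes were called, all 3 receptors were lower in CD8 cells. The log2 differences were −1.63 for Ctla4 (SE 0.09, adjusted p = 6.8e-08), −0.75 for Cd28 (SE 0.05, adjusted p = 2.5e-07) and −1.53 for Icos (SE 0.10, adjusted p = 3.8e-07).

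Receptors were often found in the same T cell. Of 2441 T cells with a Ctla4 UMI, 1660 (68.0%) also had an Icos UMI, against 46.0% of T cells without Ctla4, and 2222 (91.0%) also had Cd28, against 80.6%. In Treg cells 123 of the 151 with Ctla4 had Icos. Deeper cells have more UMIs of every gene, so these shares describe the cells as sequenced. The number of Ctla4 UMIs per Cd28 UMI, which compares gates and not the 2 genes, was 3.64 to 6.38 in Treg, 0.525 to 1.42 in CD4 and 0.322 to 0.756 in CD8 cells. In double-negative cells it was 0.400 to 0.448 with IgG1 and 0.508 to 0.928 with ipilimumab, without overlap. The exact permutation test gave p = 0.1, the smallest that 3 mice against 3 allow. The groups overlapped in the T gate (p = 0.3), Treg (p = 0.7), CD4 (p = 0.8) and CD8 cells (p = 0.3) by the same exact permutation test.

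Cd80, the ligand that both CD28 and CTLA4 bind, had its highest mean level in neutrophils. The values were 745, 720 and 803 CPM with IgG1 and 735, 536 and 747 CPM with ipilimumab (mean 714 ± 92.1, SD, n = 6). Dendritic cells were next, with wide spread: the Ccr7 dendritic cells (activated, migratory) had 857, 320 and 173 CPM with IgG1 and 209, 462 and 684 CPM with ipilimumab, from 5 to 13 cells per mouse. The cDC2 gate (conventional dendritic cells that mainly prime CD4 cells) had 222 to 579 CPM and cDC1 (which mainly prime CD8 cells) 120 to 424 CPM. Neutrophils were above cDC2 in 6 of 6 mice, by 1.11 to 3.24 times, and above Ccr7 dendritic cells in 5 of 6, while the ranges over mice overlapped for neutrophils and Ccr7 dendritic cells.

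The order changed with the scale. Neutrophils are shallow cells (medians of 3593 to 4417 UMIs), and per cell they had 3.04 Cd80 UMIs, fewer than cDC2 (8.83) and Ccr7 dendritic cells (8.45). A Cd80 UMI was in 75.4% of neutrophils and 2.36% of T cells, and after thinning in 37.4 to 49.8% and 0 to 0.416%. Of 1398 neutrophils with Cd80, 183 had a Cd86 UMI, whereas 62 of the 64 cDC2 cells with Cd80 did. Classical and nonclassical monocytes had 81.1 to 139 and 78.0 to 163 CPM, C1q macrophages 39.7 to 155 CPM and alveolar macrophages 35.4 to 64.8 CPM, and each of these overlapped its neighbour. B cells, at 3.41 to 9.36 CPM, were below every alveolar macrophage value.

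Cd86, the other ligand of CD28 and CTLA4, was high across dendritic cells, B cells, monocytes and C1q macrophages. It was 1303, 1098 and 1209 CPM in cDC2 of the IgG1 mice and 864, 1339 and 953 CPM in those of the ipilimumab mice. B cells had 992, 798 and 920 CPM and 846, 959 and 929 CPM, the narrowest spread of these gates (mean 907 ± 72.4, SD, n = 6). The gates from cDC2 down to C1q macrophages (320 to 836 CPM) each overlapped the next, and all values there were above those of alveolar macrophages (54.3 to 168 CPM). Per cell, B cells had 5.76 Cd86 UMIs against 23.2 in cDC2 and 22.1 in cDC1, so their share of the lung's Cd86 UMIs went with their number, 8619 cells. A Cd86 UMI was in 80.6% of B cells and 2.23% of NK cells, at median depths of 5249 to 6648 and 5662 to 6846 UMIs.

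Treg cells had more Cd86 than conventional CD4 cells. The levels were 114, 74.8 and 69.2 CPM with IgG1 and 70.8, 47.2 and 64.2 CPM with ipilimumab, against 9.97 to 37.3 CPM in CD4 cells, and edgeR gave a log2 difference of 1.88 (SE 0.27, adjusted p = 1.5e-04). Between 5.26 and 41.2% of Treg cells had a UMI, from 121 UMIs in all. Markers of other lineages were higher too: the 6 B markers summed to 8.14 to 173 CPM in Treg and 7.28 to 37.5 CPM in CD4 cells, and the 6 classical monocyte markers to 72.2 to 268 CPM and 42.7 to 129 CPM, with 1 to 5 B markers and 2 to 4 monocyte markers at 0 per mouse in Treg cells. Their part in the Cd86 difference was not tested.

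Icosl, the ICOS ligand, reached at most 157 CPM in any of these gates and mice. Ccr7 dendritic cells had 75.6, 137 and 52.7 CPM with IgG1 and 157, 47.1 and 36.0 CPM with ipilimumab, from 69 UMIs in all. The cDC1 (13.3 to 95.2 CPM), cDC2 (33.3 to 66.7 CPM), fibroblast (25.5 to 51.9 CPM) and B gates (32.9 to 42.5 CPM) overlapped one another. The ILC2 gate had 8, 5 and 3 Icosl UMIs from 16, 16 and 18 cells of ipilimumab replicates 1 to 3. It had 0 from the 1, 4 and 5 cells of the IgG1 mice. B cells were 14.7 to 30.3 times above the T cells of the same mouse, which had 1.31 to 2.23 CPM. An Icosl UMI was in 25.9% of fibroblasts, 28.2% of alveolar macrophages and 20.2% of B cells, against 1.67% of T cells, and after thinning in 2.94 to 5.48%, 1.55 to 2.56%, 3.37 to 4.40% and 0 to 0.365%. Among structural cells, the endothelium had 1.12 to 7.98 CPM of Icosl, below every fibroblast value, and the few ciliated and AT1 cells had no Icosl UMI. AT2 cells had 6 Icosl UMIs, all in ipilimumab replicate 1, which gave 158 of the 181 AT2 cells. The endothelium had 4.48 to 75.0 CPM of Cd86, with B markers at 13.4 to 158 CPM and classical monocyte markers at 13.1 to 302 CPM in the gate, whose part in that value was not tested.

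**Figure D4:**
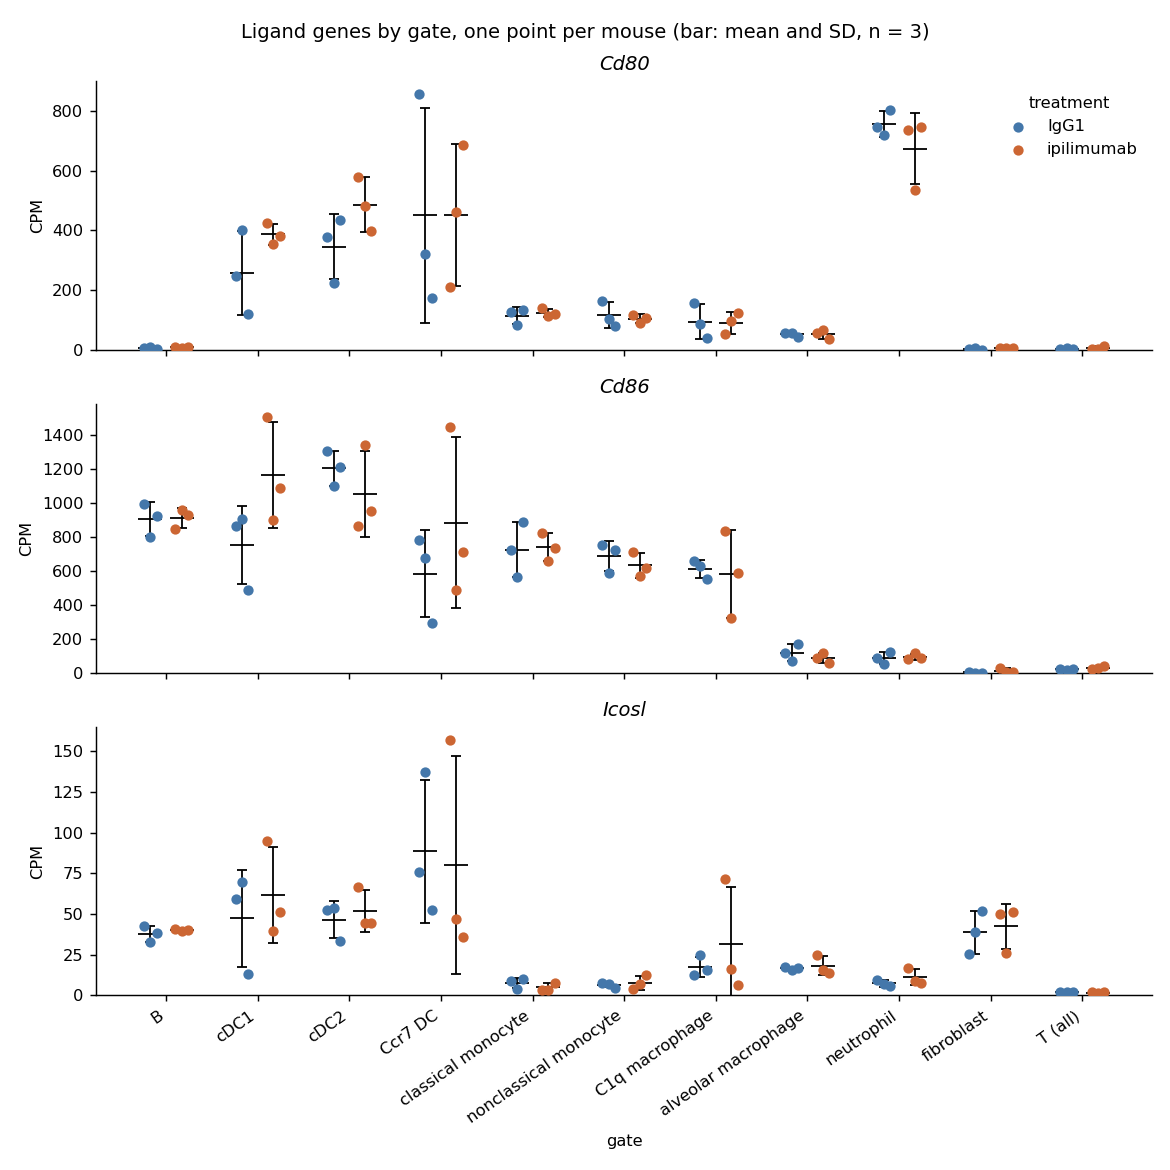
CPM of Cd80, Cd86 and Icosl in B, dendritic, monocyte, macrophage, neutrophil, fibroblast and T gates, 1 point per mouse with the group mean and SD (3 mice per group; bars are cut at 0). Neutrophils carry Cd80 (536 to 803 CPM) with little Cd86 (50.4 to 118 CPM), and B cells carry Cd86 (798 to 992 CPM) with little Cd80 (3.41 to 9.36 CPM).

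Paired tests between antigen-presenting gates gave the ligand differences with their error. B cells against cDC2 called 52.5% of genes: Cd80 differed by −6.02 on the log2 scale (SE 0.24, adjusted p = 6.7e-14), Cd86 differed by −0.41 (SE 0.12, adjusted p = 0.0077) and Icosl by −0.46 (95% interval −0.96 to 0.04, adjusted p = 0.112). The median of all genes in this contrast was 0.32. Within a mouse the Cd86 level of B cells was 0.716 to 0.980 times that of cDC2. The Cd86 call was lost without the filter on low counts (−0.19, adjusted p = 0.364), with 4 markers per gate (−0.21, adjusted p = 0.207) and with cells called by UMI total alone (−0.30, inside the fold limit). Alveolar against C1q macrophages called 28.5% of genes, where Cd86 differed by −2.77 (SE 0.24, adjusted p = 5.5e-08), Cd80 was lower too (adjusted p = 0.0019, C1q macrophages above in 4 of 6 mice) and Icosl differed by −0.40 (95% interval −1.06 to 0.26).

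Among dendritic cells the ligands were not separated. Ccr7 dendritic cells against cDC2 called 39.9% of genes, but neither Cd80 (0.15, 95% interval −0.61 to 0.91) nor Cd86 (−0.64, −1.29 to 0.01, adjusted p = 0.110), and Icosl had too few UMIs to be tested. The call of Cd86 turned on ipilimumab replicate 1, without which the difference was −0.94 with adjusted p = 0.0118, and it was also called without the filter on low counts (−0.76) and with total UMIs as the scale (−0.80). The cDC1 against cDC2 contrast called 11.9% of genes and none of the ligands. Nonclassical against classical monocytes called 46.2% of genes, and there Cd86 differed by −0.24 (adjusted p = 0.0158), inside the fold limit (−0.30 and called with 4 markers per gate), and Cd80 by −0.25 (adjusted p = 0.161).

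Genes that act with these receptors and ligands were read from 5 lists. In Treg against conventional CD4 cells a list of 19 genes of receptor-proximal signalling was split, with 3 of 19 higher and 4 lower (median −0.16, all genes 0.01), beside 10.1% of all genes called. A list of 9 genes that handle CTLA4 had 1 of 9 called. Of 6 genes induced by costimulation, 5 could be tested and 3 were higher: Il2ra, the high-affinity interleukin 2 receptor chain and a known Treg gene (4.41), Tnfrsf9, which encodes 4-1BB (3.56), and Tnfrsf4, which encodes OX40 (2.10). Whether these 3 go with costimulation or with Treg identity was not tested. A list of 7 genes that control the ligands had 3 of 4 tested higher in Treg cells (median 0.84), among them Cd83 (2.36). In CD8 against CD4 cells, where 19.4% of all genes were called, 1 signalling gene was higher (Pik3cd, 0.89) and 7 were lower (median −0.22). The costimulation list had 1 of 5 higher (Myc, 0.92) and 3 lower, among them Tnfrsf4 (−3.84). The CTLA4 handling list had 3 of 9 lower, among them Trat1, an adaptor that carries CTLA4 to the surface (−2.27), and a list of ICOS control genes had 2 of 6 lower with a median of 0.06, among them Maf, a transcription factor downstream of ICOS (−3.05). The list of genes that control the ligands had 4 of 5 tested higher in Ccr7 dendritic cells than in cDC2 (median 1.27, all genes −0.04, 39.9% of all genes called), among them Relb, a subunit of NF-kB (2.15), although Cd80 and Cd86 were not called there. The same list had 4 of 5 lower in alveolar than C1q macrophages (median −1.68, all genes 0.04, 28.5% of all genes called), with Cd83, which protects CD86 from turnover (−3.44), and Irf4 (−3.03).

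Likeness of pattern was described over 19 gates with at least 5 cells in 4 or more mice, as the Pearson correlation of mean log2(CPM + 10) among 8664 genes that were no gate marker. The gates share libraries and some share cells, so no p-value is given. Ctla4 was most like Tesc (r = 0.920), Dusp4 (0.858) and Cd28 (0.857), Cd28 most like Camk4 (0.917), Tox (0.916) and Cd247 (0.911), and Icos most like Camk4 (0.988), Ubash3a (0.979) and Bcl11b (0.978). Tesc was highest in double-negative cells and Dusp4 in the plasma gate, whereas Ctla4 was highest in Treg cells. Cd80 was most like Il1b (0.934), Aph1c (0.873) and Gm34084 (0.864), the first and last of them highest in neutrophils. Cd86 followed Gm49662 (0.936), Cd83 (0.932) and Gm6377 (0.885). Icosl had the weakest matches, Nmnat3 (0.792), Adam23 (0.773) and Uap1 (0.764), each highest in Ccr7 dendritic cells.

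The question of treatment was whether ipilimumab changed the levels of these genes. In none of 64 tests of a member in a gate did it pass the call, and 19 of 20 fits called 0% of genes, with 0.156% called in neutrophils. At an unadjusted p under 0.05 a fit held 85 to 887 genes and the members 3 of their 64 results. DESeq2 called 0 to 43 genes per fit, 25 in the T gate, where the replicated edgeR test called 0 of 12187 and had 887 at an unadjusted p under 0.05. The gates overlap in cells and all come from the same 6 mice, so the directions below are not independent of each other.

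Both induced receptors tended upward with ipilimumab and Cd28 downward, within the spread of the mice. In the T gate Ctla4 was 324, 583 and 335 CPM with IgG1 and 495, 473 and 712 CPM with ipilimumab, a log2 difference of 0.43 (95% interval −0.10 to 0.95, adjusted p = 0.726). Icos was 182, 327 and 204 CPM against 312, 269 and 434 CPM, a difference of 0.50 (SE 0.23, adjusted p = 0.688). IgG1 replicate 2 was above 1 or more ipilimumab mice for both genes, so the groups overlapped. Cd28 differed by −0.14 (−0.38 to 0.10), and leaving out each mouse in turn gave −0.21 to −0.016. The estimate was above 0 in 9 of 10 gates tested for Ctla4 and 8 of 8 for Icos, and below 0 in 8 of 9 for Cd28.

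By subset, the Icos difference was 0.46 in Treg (−0.24 to 1.15), 0.38 in CD4 (−0.15 to 0.91) and 0.06 in CD8 cells (−0.21 to 0.34). Double-negative cells had the lowest unadjusted p for a receptor: Icos was 264, 453 and 295 CPM with IgG1 and 579, 418 and 657 CPM with ipilimumab, a difference of 0.70 (0.24 to 1.17, adjusted p = 0.427). Leaving out each mouse in turn gave 0.54 to 0.99. The value of 0.99, with adjusted p = 0.0197 by edgeR, came without IgG1 replicate 2, the one IgG1 mouse inside the ipilimumab range. It was singled out after the data were seen, and the separation of the groups follows from that choice. Without the filter on low counts Icos (0.70, adjusted p = 3.2e-06) and Ctla4 (0.48, adjusted p = 0.017) were called in these cells. That setting also raised the number of genes called in the T gate, and the main fit called neither gene. NK markers in these cells summed to 106 ± 34.5 CPM with IgG1 and 293 ± 199 CPM with ipilimumab (SD, n = 3 each) without overlap, while B markers stayed at 9.31 to 28.9 CPM, and their part in the Icos value was not tested.

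Whether the treatment difference itself varied between T subsets was tested as an interaction. Treg against CD4 gave 0.26 for Ctla4 (95% interval −0.18 to 0.71), 0.32 for Cd28 (−0.12 to 0.75) and 0.15 for Icos (−0.39 to 0.70). CD8 against CD4 gave 0.15, −0.17 and −0.34. For Cd86, with 121 UMIs in Treg cells in all, Treg against CD4 gave −1.07 (−2.06 to −0.07). CD8 against CD4 gave −0.71 for Cd86 (−1.64 to 0.22), and neither was called. The edgeR fits called 0% of genes in both contrasts, with 331 and 473 genes at an unadjusted p under 0.05.

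No ligand was called between treatments in the gate with the highest mean share of its UMIs. Cd86 in B cells differed by 0.02 (95% interval −0.19 to 0.22) and Icosl in B cells by 0.08 (−0.15 to 0.31). Cd80 in neutrophils differed by −0.26 (−0.57 to 0.05, adjusted p = 0.496), with ipilimumab replicate 2 below the other mice. The dendritic cell estimate farthest from 0 was 0.61 for Cd86 in cDC1 (−0.03 to 1.25), and Icosl in fibroblasts differed by 0.12 (−0.60 to 0.84). Alveolar macrophage markers in the neutrophil gate summed to 36.5 ± 8.59 CPM with IgG1 and 189 ± 121 CPM with ipilimumab, and classical monocyte markers to 63.3 ± 2.21 and 166 ± 103 CPM (SD, n = 3 each), both without overlap, and their part in the Cd80 value was not tested.

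**Figure D5:**
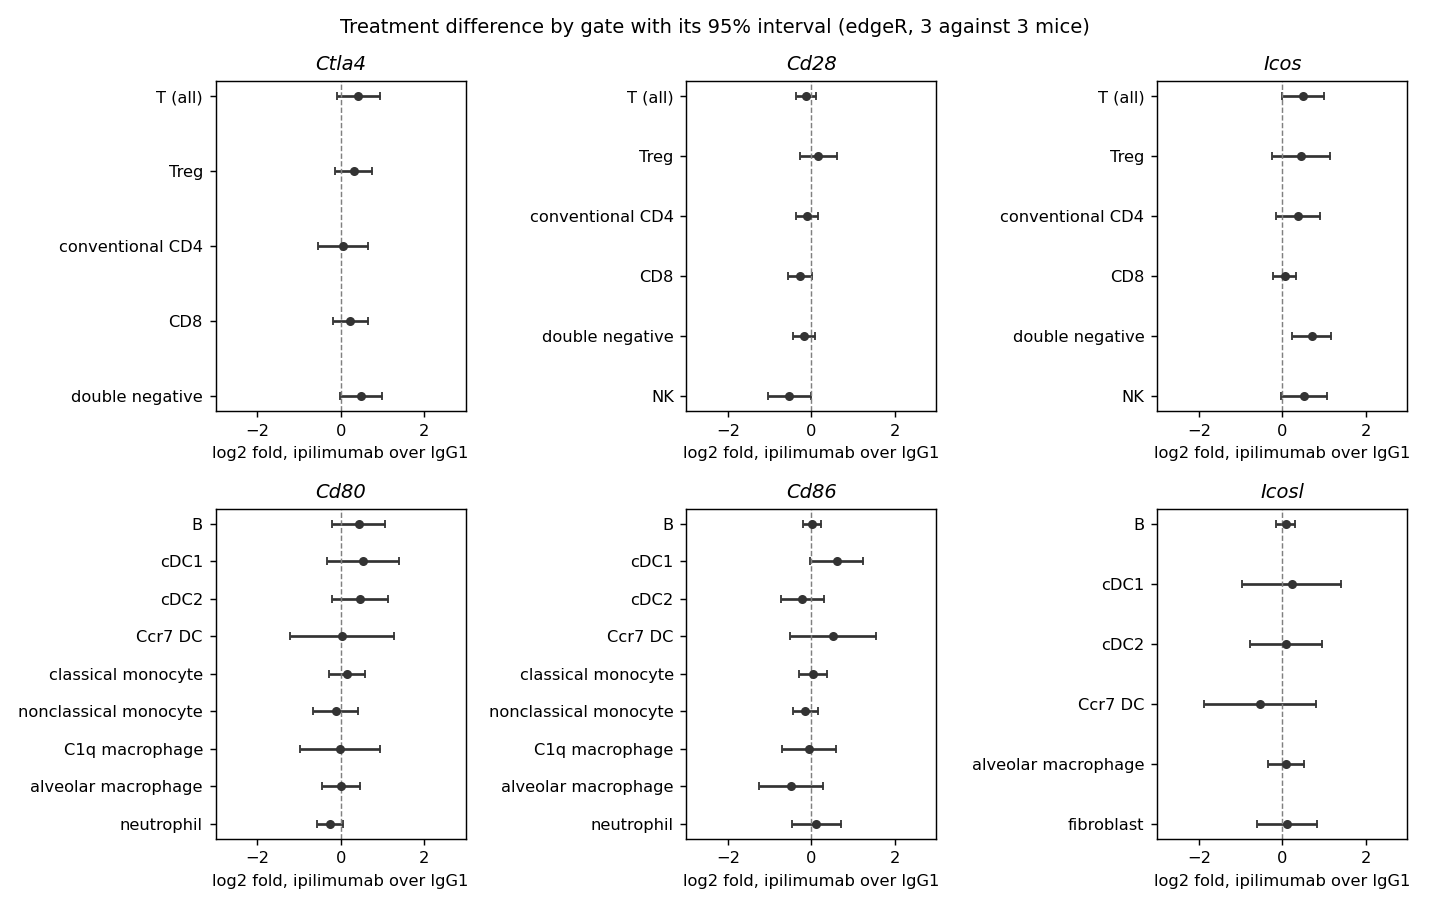
Log2 difference of ipilimumab over IgG1 for each of the 6 genes in the main gates for that gene, as points with the 95% interval of the edgeR fit (3 against 3 mice). No result passed the call, and Ctla4 lies above 0 in every gate shown while most intervals include 0.

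Of 174 shares of a gene's UMIs held by a gate, 20 (11.5%) were without overlap between treatments. Separation of 3 mice from 3 has a probability of 0.1 with no treatment difference, so this count is near the chance level. The gates include the T gate and its subsets, so the shares are not independent. Those below were chosen among these 20 after their values were seen. Treg cells held 15.7 ± 6.36% of Ctla4 UMIs with IgG1 and 24.3 ± 2.68% with ipilimumab (SD, n = 3 each) without overlap, and were 0.503% and 0.781% of cells, also without overlap. The share of Ctla4 UMIs was lowest in IgG1 replicate 1 (8.52%), without which the difference was 5.02 in place of 8.62 percentage points. As a share of T cells they were 2.49% and 3.63%, with overlap (exact permutation p = 0.2). CD8 cells held 33.9 ± 5.92% of Cd28 UMIs with IgG1 and 26.7 ± 1.62% with ipilimumab. That difference of −7.16 percentage points was −3.89 without IgG1 replicate 3. Neutrophils held 49.2 ± 7.59% of Cd80 UMIs with IgG1 and 28.4 ± 10.8% with ipilimumab, while cDC2 had 2.67 ± 1.53% and 7.85 ± 1.36% and cDC1 2.15 ± 0.963% and 6.51 ± 2.30%. Neutrophils were 6.64, 17.1 and 5.75% of cells with IgG1 and 5.67, 4.89 and 4.67% with ipilimumab, and the difference in means of −4.77 percentage points was −1.12 without IgG1 replicate 2, an alternative chosen after the data were seen. Each of these UMI shares was without overlap between groups, with exact permutation p = 0.1, the smallest possible here. The T share of all Ctla4 UMIs was 82.2 ± 10.1% and 85.7 ± 2.34%, a difference that changed sign without IgG1 replicate 1 (from 3.47 to −1.31 percentage points).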

How the data were processed

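The authors digested the right lung, built 10x 3′ v3.1 libraries and aligned reads to mm10. Per the labels the tool was Cell Ranger 7.0.0, while the methods name an earlier version, and the 2 count intronic reads differently by default. The deposited values are raw UMI counts per gene and barcode, before normalization or ambient RNA removal. No column was unmapped.

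Barcodes were called from the UMI total (1/10 of the 99th percentile of the top 5000) or, above 500 UMIs, by a profile unlike ambient RNA (barcodes ranked 45000 to 90000, adjusted p up to 0.01). Cells with under 200 genes or over 10% mitochondrial UMIs, and top doublet scores (0.8% per 1000 cells), were removed. Counts were summed per mouse and gate (at least 5 cells) and tested with edgeR 4.0.16 (R 4.3.3; quasi-likelihood, TMM, filterByExpr, Benjamini-Hochberg over all genes), with DESeq2 1.42.0 as an alternative. Scripts were tested on simulated data. Standard errors are the log2 fold change over the root of F. Single shares had an exact two-sided permutation test over mice. Named pathway genes were the called ones, at most 8 per comparison by size, and the 3 genes most like each member. The same replicate number in both groups did not pair mice. A further split of the CD4 and CD8 cells is not reported here. The members, gates, lists and tests were chosen with earlier results of these data known.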

Additional observations from a re-analysis of the deposited data

Results flagged for a closer look

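Of the 6 genes, 3 had more of the free RNA than of the cells. Free RNA was read from barcodes too low to be cells, and the ratio of its CPM to that of all cells of the same library is given as the median over 6 libraries. Each of the 3 is listed because that ratio is above 1. For Ctla4 the ratio was 1.77, from 1.60 to 2.05, with 170 to 273 CPM in free RNA and 89.8 to 171 CPM in cells. For Cd80 it was 1.54, with 58.1 to 130 CPM against 43.2 to 87.2 CPM. For Icosl it was 2.39, from 1.44 to 2.86. All 3 were above the cells in 6 of 6 libraries. Cd28 (0.581) and Cd86 (0.465) were below the cells in 6 of 6, and Icos (0.864) was above them in 2 of 6. Free RNA was estimated to make up 2.45 to 8.94% of the UMIs of T and B cells. With it subtracted, 0 of 40 treatment tests of a member were called by edgeR.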

How the results depend on the processing

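Of 448 values for treatment under alternatives that kept all mice, 428 kept direction and side of the threshold, as did 269 of 283 for differences between gates, 17 of 18 shares of cells with a UMI and 12 of 12 UMI shares. The log2 values that changed sign were not called in any of these fits, and the cause was not tested. With a wider Treg gate they were −0.093 for Cd28 in Treg and −0.024 for Ctla4 in CD4. With doublets kept they were −0.0027 for Cd86 in B and −0.15 for Cd86 in neutrophils. With free RNA subtracted they were −0.010 for Cd86 in B. With RLE size factors they were −0.00031 for Cd80 in alveolar macrophages. With 4 markers per gate they were −0.0095 for Cd80 in alveolar macrophages, 0.085 for Cd80 in C1q macrophages, −0.27 for Icosl in cDC1, −0.14 for Icosl in cDC2, −0.048 for Cd80 in Ccr7 dendritic cells and 0.12 for Cd86 in cDC1 against cDC2. With a replicate block they were −0.014 for Cd80 in alveolar macrophages and 0.088 for Cd80 in C1q macrophages. Without the filter on low counts they were 0.020 for Cd80 in C1q macrophages. With cells called by UMI total alone they were 0.026 for Cd80 in C1q macrophages. With at least 20 cells per mouse they were 0.047 for Cd28 in Treg against CD4. With total UMIs as the scale they were −0.011 for Cd80 in Ccr7 dendritic cells against cDC2. The replicate block, whose numbers pair no mice (correlations of deviations from −0.224 to 0.201), called 0 of 40 members and 1 gene in the T gate, against 0 without it, and gave 0.46 for Ctla4, −0.13 for Cd28 and 0.52 for Icos there.

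The T gate held 93 called genes without the filter on low counts and 25 with DESeq2. Called genes numbered 1262 in place of 815 between Treg and CD4 cells with a wider Treg gate, and without the filter 1944 in place of 1107 between Ccr7 dendritic cells and cDC2 and 887 in place of 455 between cDC1 and cDC2. Cd86 in B cells against cDC2 was −0.19 without the filter, −0.21 with 4 markers and −0.30 with UMI total alone, none called. Icosl in that contrast was called without the mouse block (−0.49, adjusted p = 0.019). The treatment difference in the share of Treg cells with a Ctla4 UMI was −0.90 percentage points after thinning, against 1.29 before.

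Leaving out each mouse in turn kept 214 of 246 treatment values, 152 of 156 between gates, 45 of 48 interactions and 34 of 36 UMI shares. Log2 treatment differences that changed sign ran from −0.17 to 0.032 for Cd28 in CD4, −0.34 to 0.55 for Cd80 in C1q macrophages, −0.41 to 0.87 for Cd80 in Ccr7 dendritic cells, −0.20 to 0.21 for Cd80 in alveolar macrophages, −0.044 to 0.30 for Cd80 in classical monocytes, −0.36 to 0.19 for Cd80 in nonclassical monocytes, −0.066 to 0.088 for Cd86 in B, −0.40 to 0.23 for Cd86 in C1q macrophages, −0.10 to 0.21 for Cd86 in classical monocytes, −0.18 to 0.38 for Cd86 in neutrophils, −0.19 to 0.46 for Ctla4 in CD4, −0.048 to 0.14 for Icos in CD8, −0.0091 to 0.17 for Icosl in B, −0.14 to 0.23 for Icosl in alveolar macrophages, −0.14 to 0.65 for Icosl in cDC1, −0.089 to 0.23 for Icosl in cDC2, −0.074 to 0.43 for Icosl in fibroblasts. Between gates the value that changed sign ran from −0.10 to 0.42 for Cd80 in Ccr7 dendritic cells against cDC2. The interaction of Icos in Treg against CD4 ran from −0.045 to 0.38, and that of CD8 against CD4 called 0 to 3 genes, 3 of them without ipilimumab replicate 1. Between cDC1 and cDC2, 290 to 447 genes were called, the fewest without ipilimumab replicate 3. The treatment difference in the T share of UMIs ran from −1.31 to 8.78 percentage points for Ctla4, negative without IgG1 replicate 1, and from −1.55 to 2.16 for Cd28, negative without IgG1 replicate 2.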
